A study of Homo sapiens with 26 samples.

Results

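The genes described here are the decoy receptor TNFRSF6B, its chromosomal neighbour RTEL1, the death receptors FAS, TNFRSF10A and TNFRSF10B, the TRAIL decoy receptors TNFRSF10C and TNFRSF10D, and the ligands FASLG, TNFSF14 and TNFSF15. They form a named list, chosen with earlier results of these data known, and were found by Ensembl identifier as 10 of the 41078 genes in the deposited table. The values are TPM, an abundance that is corrected for transcript length and scaled to the same total in each library. The table holds 1 mRNA library for each of 26 single cell-derived cell lines (SCDCLs), of which 12 are labelled BxPC3 and 14 Panc-1. Both are lines of pancreatic ductal adenocarcinoma. Each SCDCL was grown from a single cell after limiting dilution in DMEM with 10% fetal bovine serum, so each is 1 clone, and none has a replicate library. All 26 libraries carry gemcitabine as a treatment in their labels, but according to the methods the drug was given only to cells seeded for viability assays.

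SMAD4, the TGF-beta signal transducer that is deleted in BxPC3 and intact in Panc-1, did not follow the labels. It was at or below 0.0440 TPM in 12 libraries, 5 labelled BxPC3 and 7 labelled Panc-1. It lay between 28.1 and 52.2 TPM in the other 14, of which 7 carry each label. The libraries are therefore called by their label and number throughout, and they were divided by SMAD4 under 1 TPM or not. Because this division is read from the same libraries, values across it are given as ranges, medians and differences, without a test. Total estimated counts were 27144920 to 34945608 in the 12 libraries and 27035724 to 32601392 in the 14. VIM, a mesenchymal intermediate filament gene, was at 1.42 to 73.2 TPM in the 12 and 3047 to 4526 TPM in the 14. CDH1, the epithelial cadherin gene, was at 90.8 to 198 TPM and 0.338 to 7.74 TPM. Not all markers followed them. The epithelial keratin genes KRT8, with medians of 461 TPM in the 12 and 2053 TPM in the 14, and KRT18, with medians of 521 and 1598 TPM, had lower medians in the 12, with overlap. FN1, the fibronectin gene of the mesenchymal list, was higher in the 12 without overlap, with medians of 32.6 and 1.33 TPM. All the differences below move together with these markers, and the part of the markers in them was not tested. The line of origin of each library was not tested either. Differences between the sets, also within a label, therefore cannot be told apart from differences between lines of origin.

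Death receptors carry an intracellular death domain. When FASLG binds FAS, or TRAIL (the product of TNFSF10) binds TNFRSF10A (DR4) or TNFRSF10B (DR5), the adaptor FADD recruits CASP8 or CASP10 into a death-inducing signalling complex, which CFLAR (c-FLIP) restrains. TNFRSF10C (DcR1) and TNFRSF10D (DcR2) bind TRAIL without passing on a death signal, since the former lacks a death domain and the latter has a truncated one. TNFRSF6B encodes DcR3, a secreted receptor that binds FASLG, TNFSF14 (LIGHT) and TNFSF15 (TL1A) in solution, and it is known to be raised in gastrointestinal and pancreatic tumours. RTEL1 is a helicase that maintains telomeres and is unrelated to this pathway, but it lies directly beside TNFRSF6B.

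All receptors of the list were higher in the libraries with SMAD4 under 1 TPM, and the ligands were near 0 in every library. Of the 10 genes, 6 had all 12 libraries above all 14 others, namely TNFRSF6B, FAS, TNFRSF10A, TNFRSF10B, TNFRSF10C and TNFRSF10D, and 0 had them below. RTEL1, FASLG, TNFSF14 and TNFSF15 overlapped. The same separation was found for 8.65% of 29524 genes in the higher direction and for 8.60% in the lower direction. The median difference of mean log2(TPM + 1) was 1.41 over the 10 genes and 0.0071 over all 29524 genes. With median-of-ratios scaling RTEL1 also separated, making 7 of 10 against a background of 9.48%. With a median of at least 1 TPM required in the higher set, 5 of the 6 genes left were higher, against 15.2%. The number was 7 of 10 (RTEL1 added) in the libraries labelled BxPC3, where the background was 14.3% in the higher and 12.6% in the lower direction. It was 6 of 10 in those labelled Panc-1, where the background was 12.9% and 13.1%. No gene of the 10 was lower within either label. In bulk RNA, fewer cells that express a gene and less RNA of it per cell cannot be told apart.

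**Figure D1:**
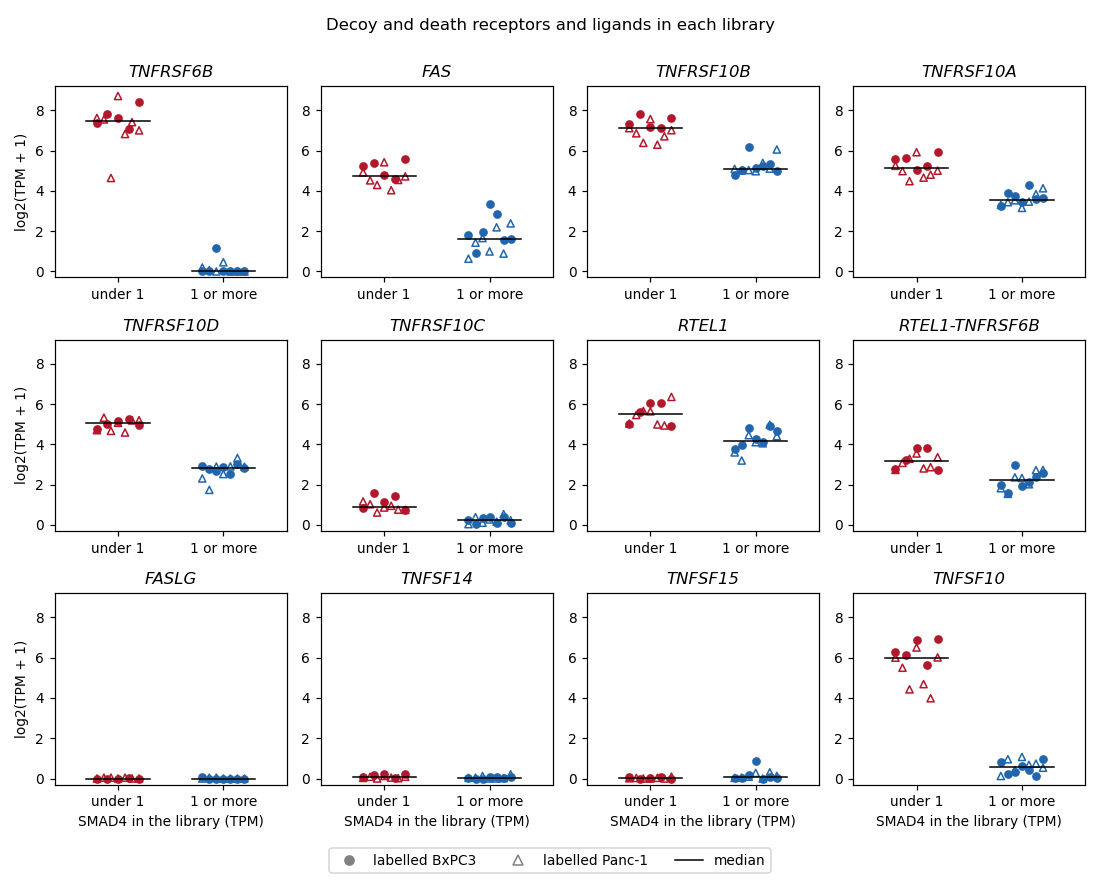
TPM of each gene on a log2(TPM + 1) axis in the 12 libraries with SMAD4 under 1 TPM (red) and the 14 others (blue), with filled circles for the BxPC3 label, open triangles for the Panc-1 label and a line at the median. TNFRSF6B, FAS, the TNFRSF10 genes and TNFSF10 do not overlap between the sets, RTEL1 and its readthrough gene do, and FASLG, TNFSF14 and TNFSF15 lie near 0.

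TNFRSF6B (ENSG00000243509) showed the widest separation. Among the 12 libraries with low SMAD4 it was at 23.9 TPM in Panc-1 3, 112 in Panc-1 5, 127 in Panc-1 7, 134 in BxPC3 25, 163 in BxPC3 16, 169 in Panc-1 6, 186 in Panc-1 2, 193 in BxPC3 24, 196 in Panc-1 1, 226 in BxPC3 21, 335 in BxPC3 26 and 418 in Panc-1 4. In the other 14 libraries it was listed at 0 in 8, and the highest value was 1.26 TPM, or 28.6 estimated counts, in BxPC3 18. The lowest of the 12 was thus 18.9 times the highest of the 14. The difference of mean log2(TPM + 1) was 7.20, which exceeded that of 99.8% of the 14763 genes with a mean of at least 1 TPM. It depends on the pseudocount because most of the lower values are 0. Both labels held high and low libraries. The median was 193 TPM in the 5 libraries labelled BxPC3 with low SMAD4 and 169 TPM in the 7 labelled Panc-1, whereas the highest values were 1.26 and 0.371 TPM in the remaining libraries of these labels.

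TNFRSF6B also varied among the 12 libraries that expressed it. The highest was 17.5 times the lowest. The SD of log2(TPM + 1) was 1.01, against 0.0330 for the error that kallisto gave for 1 library from 30 redraws of its reads, which covers counting and the assignment of reads among transcripts. The former exceeded the SD of 97.5% of 14375 genes with a mean of at least 1 TPM, whose median SD was 0.300. Panc-1 3 stood lowest by a wide gap, and no other library was under 112 TPM.

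TNFRSF6B shares its exons with a second annotated gene. In GRCh38 with GENCODE 44, RTEL1 (ENSG00000258366) spans chr20:63657810-63696253 and TNFRSF6B chr20:63696652-63698684, both on the plus strand, with 399 bases from the end of the first to the start of the second. A readthrough gene, RTEL1-TNFRSF6B, runs over both, from 63659300 to 63698684. All 1140 exonic bases of TNFRSF6B, that is 100%, also belong to exons of the readthrough gene, as do 4522 of the 8542 of RTEL1 (52.9%), whereas RTEL1 and TNFRSF6B share 0. Values of TNFRSF6B near 0 can thus depend on how kallisto divided the shared reads. The SD of TNFRSF6B over the redraws had a median of 242% of their mean in the 14 libraries with SMAD4. It was 1.70% in the 12 with low SMAD4, and libraries with a mean of 0 were left out. ARFRP1, a GTPase gene on the opposite strand, shares 43 of the bases of TNFRSF6B. The libraries kept the strand. The stretches directly before both start sites are shown because they are the separate promoter regions of the neighbours, and they come from RefSeq's promoter table for GRCh38.p14, which had entries for 6 of the 10 genes. That of TNFRSF6B is chr20:63696402-63696651, 250 bases inside the readthrough gene, and that of RTEL1 is chr20:63657683-63657809, 127 bases between the first exon of STMN3 and RTEL1. Both are on the plus strand, from 5′ to 3′. The capitals mark a GC box.
TNFRSF6B: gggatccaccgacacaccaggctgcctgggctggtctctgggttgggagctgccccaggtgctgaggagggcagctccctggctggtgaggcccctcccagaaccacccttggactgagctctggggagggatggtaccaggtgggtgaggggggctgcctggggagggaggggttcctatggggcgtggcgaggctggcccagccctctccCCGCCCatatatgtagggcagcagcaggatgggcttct
RTEL1: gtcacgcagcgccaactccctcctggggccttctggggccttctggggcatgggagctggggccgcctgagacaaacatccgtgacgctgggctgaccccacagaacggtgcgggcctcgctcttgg

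Both stretches were rich in G and C, at 68.0% for TNFRSF6B and 68.5% for RTEL1. On both strands, 5 motifs were searched, the TATA box as TATAAA, the CCAAT box, the GC box as GGGCGG, the AP-1 site as TGANTCA and the kappa B site. The stretch of TNFRSF6B held 1 match of GGGCGG, on the minus strand at position -38 from the gene start, a motif found in 42.6% of 34796 windows of 250 bases. The other 4 motifs were not matched there, and are found in 10.8%, 32.0%, 6.59% and 0.529% of such windows in the order given. None of the 5 was matched in the stretch of RTEL1. A match is a description of these letters only.

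RTEL1 was higher in the libraries with low SMAD4 as well, but by far less than TNFRSF6B. It was lowest at 29.7, had a median of 45.1 and was highest at 81.0 TPM in the 12 libraries, against 8.19, 17.2 and 30.4 TPM in the 14. The medians differed 2.62-fold and the mean log2(TPM + 1) by 1.24. This difference was larger than that of 86.5% of the 14763 genes with a mean of at least 1 TPM. The ranges overlapped narrowly, since Panc-1 13 with SMAD4 lay above BxPC3 26 and Panc-1 6, the lowest of the 12. The readthrough gene was at 5.66, 7.92 and 13.05 TPM in the 12 libraries and at 1.92, 3.71 and 6.98 TPM in the 14, a difference of 0.95 on the log2(TPM + 1) scale. Its level relative to RTEL1 hardly changed, with median ratios of 0.190 and 0.206. In contrast, TNFRSF6B per RTEL1 had a median ratio of 4.56 (0.483 to 11.3) in the 12 libraries and was at most 0.0472 in the 14. The mean effective transcript length that enters the TPM of RTEL1 was 1478 to 2459 bases in the 12 libraries and 1905 to 3113 bases in the 14, with medians of 1917 and 2221, and its part in the difference was not tested.

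Whether RTEL1 follows TNFRSF6B from clone to clone was tested within each set, because a pooled correlation would only restate the separation. Among the 12 libraries with low SMAD4, Pearson's r of log2(TPM + 1) was -0.18 (two-sided permutation test, p = 0.611, adjusted p = 0.733 over 6 relations) and Spearman's rho was -0.25 (permutation p = 0.43, adjusted p = 0.768). Panc-1 4 and Panc-1 3 lay farthest from the median of TNFRSF6B, and r was -0.32 without them (permutation p = 0.376). BxPC3 26 had the second highest TNFRSF6B, 335 TPM, and the lowest RTEL1, 29.7 TPM. Panc-1 7 had the highest RTEL1, 81.0 TPM, and 127 TPM of TNFRSF6B. No relation was therefore detectable among these 12, which does not show that there is none.

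Among the 14 other libraries, r was 0.19 (permutation p = 0.528, adjusted p = 0.733) and rho was -0.39 (permutation p = 0.162, adjusted p = 0.486). Here most values of TNFRSF6B were 0 and the direction rested on single libraries. Without BxPC3 18 r was -0.28 (permutation p = 0.366), and without BxPC3 18 and Panc-1 11 it was -0.55 (permutation p = 0.0603), where rho was -0.79 (permutation p = 0.00279, not adjusted). For the readthrough gene without these libraries rho was -0.60 (permutation p = 0.0417, not adjusted). In the libraries then left, TNFRSF6B was at most 3.18 estimated counts, in Panc-1 8. Some ranks above 0 rest on far less, such as 0.000146 estimated counts in Panc-1 12, so no relation can be read from these rho values. The readthrough gene and TNFRSF6B had r of -0.06 in the 12 (permutation p = 0.869, adjusted p = 0.869) and 0.45 in the 14 (permutation p = 0.104, adjusted p = 0.312). For ARFRP1, the next gene beyond TNFRSF6B, r was -0.51 in the 12 (permutation p = 0.0846, adjusted p = 0.312) and 0.34 in the 14 (permutation p = 0.251, adjusted p = 0.502). None of the 6 relations passed the threshold of 0.05 after adjustment.

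**Figure D2:**
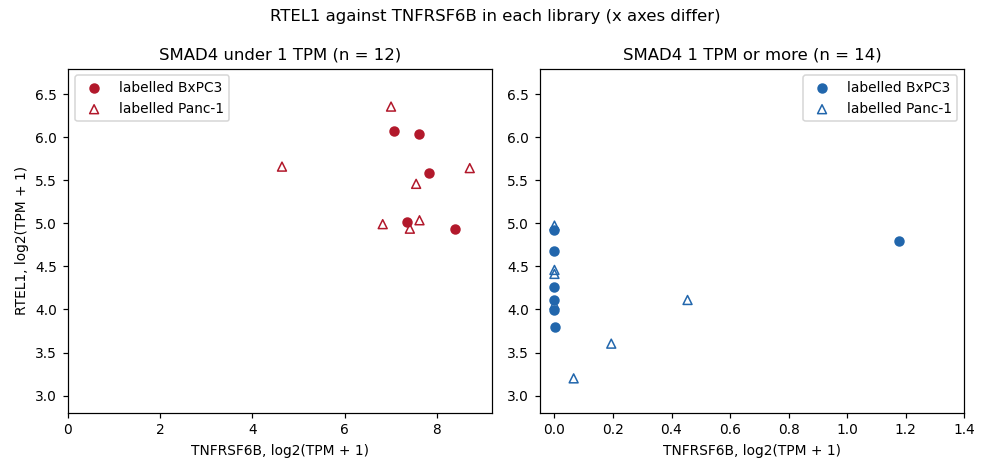
RTEL1 (y axis) against TNFRSF6B (x axis), both in log2(TPM + 1), one point per library, for the 12 libraries with SMAD4 under 1 TPM (left) and the 14 others (right, with a shorter x axis). The points on the left show no trend (r = -0.18), and most on the right stand at 0 on the x axis.

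The neighbours of TNFRSF6B on 20q13.33 mostly overlapped between the sets. Of 11 neighbours, RTEL1 included, 8 overlapped and 3 were higher in the libraries with low SMAD4 without overlap, GMEB2, DNAJC5 and TPD52L2, against 8.65% of all genes. Among genes with a median of at least 1 TPM in the higher set, as all 11 had, the share was 15.2%. The median difference of the 11 was 0.61 on the log2(TPM + 1) scale, against 7.20 for TNFRSF6B and a median absolute difference of 0.63 over the 14763 genes whose mean reached 1 TPM. ARFRP1 was at 46.1, 66.3 and 84.2 TPM in the 12 libraries and at 33.0, 44.7 and 58.4 TPM in the 14, with overlap. ZBTB46, a zinc finger gene further along, had a lower median in the 12, with 0.818 to 2.68 TPM against 2.19 to 7.42 TPM and overlap. TNFRSF6B was thus the gene of this stretch that was close to 0 in one set and abundant in the other.

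**Figure D3:**
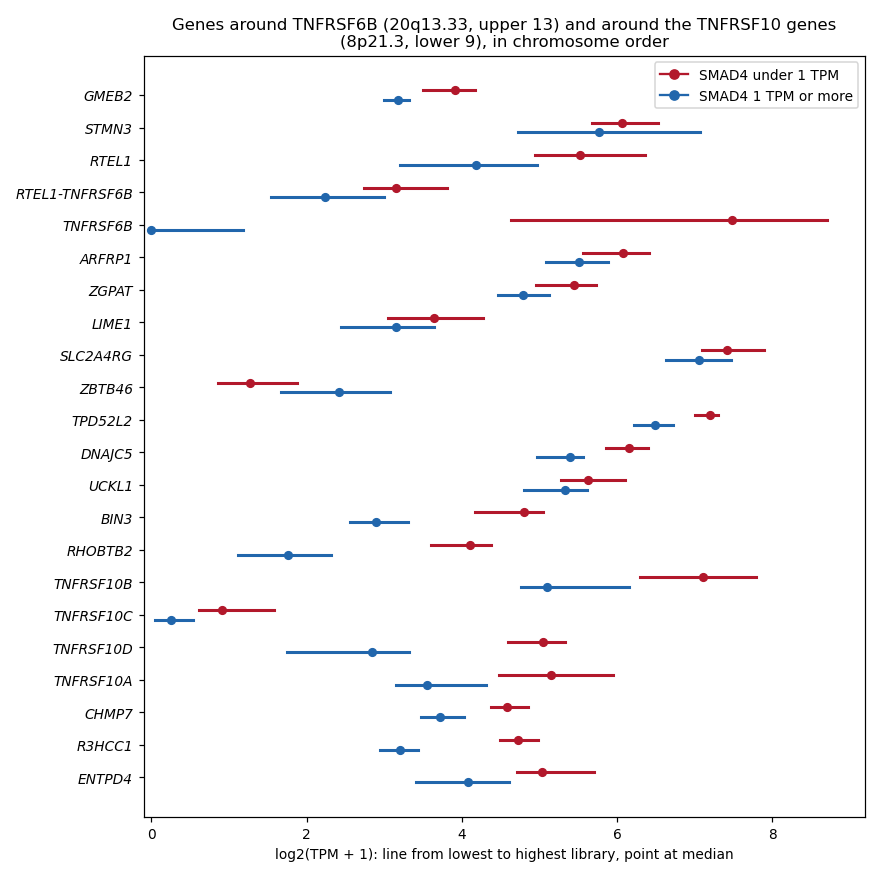
Lowest to highest library (line) and median (point) in log2(TPM + 1) for the genes around TNFRSF6B on 20q13.33 and around the TNFRSF10 genes on 8p21.3, in chromosome order, with SMAD4 under 1 TPM in red (12 libraries) and the 14 others in blue. TNFRSF6B differs by 7.20, while its 11 neighbours have a median difference of 0.61, and the 5 neighbours of the TNFRSF10 genes have one of 1.55.

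FAS (ENSG00000026103, chr10:88953813-89029605), the receptor of FASLG, was at 15.4, 26.02 and 47.0 TPM (lowest, median and highest) in the 12 libraries. In the 14 libraries with SMAD4 it was at 0.550, 2.11 and 9.15 TPM. The sets did not overlap, the medians differed 12.3-fold and the difference of mean log2(TPM + 1) was 3.11. FAS was spread widely among the 14, with an SD of 0.77 that exceeded that of 94.0% of 13826 genes and a read error of 0.15. BxPC3 19 and BxPC3 20 were highest there, at 9.15 and 6.11 TPM, and Panc-1 8 was lowest. In the 12, the SD was 0.48 and the read error 0.0754.

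The TRAIL receptors with a death domain were present in every library. TNFRSF10B (ENSG00000120889) was at 77.5, 137 and 221 TPM in the 12 libraries and at 26.3, 33.2 and 70.5 TPM in the 14, a difference of 1.84 on the log2(TPM + 1) scale. TNFRSF10A (ENSG00000104689) was at 21.4, 34.5 and 60.7 TPM and at 7.92, 10.8 and 18.9 TPM, a difference of 1.59. Neither overlapped, although the gaps were narrow, with the lowest of the 12 at 1.10 and 1.13 times the highest of the 14. In all 14 libraries with SMAD4, TNFRSF10B was the most abundant of the 10 genes. In the 12 it came second by median, and TNFRSF6B exceeded it in 9 of 12 libraries.

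The TRAIL decoys differed in level. TNFRSF10D (ENSG00000173530) was at 23.1, 32.0 and 39.2 TPM in the 12 libraries and at 2.35, 6.20 and 9.01 TPM in the 14. Its difference of 2.27 was the largest of the TNFRSF10 genes, and the lowest of the 12 was 2.56 times the highest of the 14. It was also the most even of the expressed genes among the 12, with an SD of 0.25 (read error 0.0310) that 35.4% of genes fell below. TNFRSF10C (ENSG00000173535) was scarce in all libraries, at 0.535, 0.880 and 1.98 TPM in the 12 and at 0.0296, 0.191 and 0.451 TPM in the 14. It did not overlap, but its highest estimated counts were only 65.9 and 14.5. TNFRSF10D per TNFRSF10B had a median ratio of 0.259 in the 12 libraries (0.142 to 0.342) and 0.169 in the 14 (0.0751 to 0.270), with overlap.

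The 4 TNFRSF10 genes lie within 205 kb on 8p21.3, and each of the 5 listed neighbours, RHOBTB2, CHMP7, R3HCC1, BIN3 and ENTPD4, was also higher in the 12 libraries without overlap, against 8.65% of all genes, or 15.2% of genes with a median of at least 1 TPM in the higher set. CHMP7, a gene of the ESCRT machinery, was at 19.8 to 27.9 TPM in the 12 and at 10.1 to 15.3 TPM in the 14. The median difference of these 5 genes, 1.55, was similar in size to those of TNFRSF10A and TNFRSF10B. Copy number of the stretch was not measured here.

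Some neighbours in the order of median levels exchanged places from library to library, more often in the 12 libraries than in the 14. In the 12 libraries the order was TNFRSF6B, TNFRSF10B, RTEL1, TNFRSF10A, TNFRSF10D and FAS. TNFRSF10B exceeded RTEL1 in 12 of 12, but RTEL1 exceeded TNFRSF10A in 7 of 12, TNFRSF10A exceeded TNFRSF10D in 6 of 12 and TNFRSF10D exceeded FAS in 7 of 12. The neighbours from RTEL1 to FAS in this order thus did not differ beyond their spread. In the 14 the order was TNFRSF10B, RTEL1, TNFRSF10A, TNFRSF10D and FAS. TNFRSF10B exceeded RTEL1 in 14 of 14, RTEL1 exceeded TNFRSF10A in 12 of 14, and TNFRSF10A exceeded TNFRSF10D in 14 of 14.

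Within the 12 libraries with low SMAD4, the death receptors moved together. The 4 libraries with the highest FAS, which were BxPC3 26, Panc-1 4, BxPC3 21 and BxPC3 16, were also the 4 highest for TNFRSF10A and for TNFRSF10B. Of the 4 highest for TNFRSF6B and for TNFSF10, 3 were among them, and 0 of the 4 highest for RTEL1 or TNFRSF10D. As a description over 12 libraries, r of log2(TPM + 1) was 0.95 for FAS with TNFRSF10A, 0.95 for FAS with TNFRSF10B and 0.94 for TNFRSF10A with TNFRSF10B. Spearman's rho was 0.97, 0.96 and 0.95. TNFRSF6B had r of 0.71 with FAS, 0.79 with TNFRSF10A and 0.74 with TNFRSF10B, and 0.80, 0.75 and 0.73 without the 2 libraries farthest from its median. TNFRSF10D did not share this order, with r of 0.12 with FAS and 0.14 with TNFRSF10A. Each point of these values is 1 library, which the genes share together with its depth. In the 14 libraries the same pairs had r of 0.31 for FAS with TNFRSF10A, 0.33 for FAS with TNFRSF10B and 0.47 for TNFRSF10A with TNFRSF10B, and the difference between the sets was not tested.

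**Figure D4:**
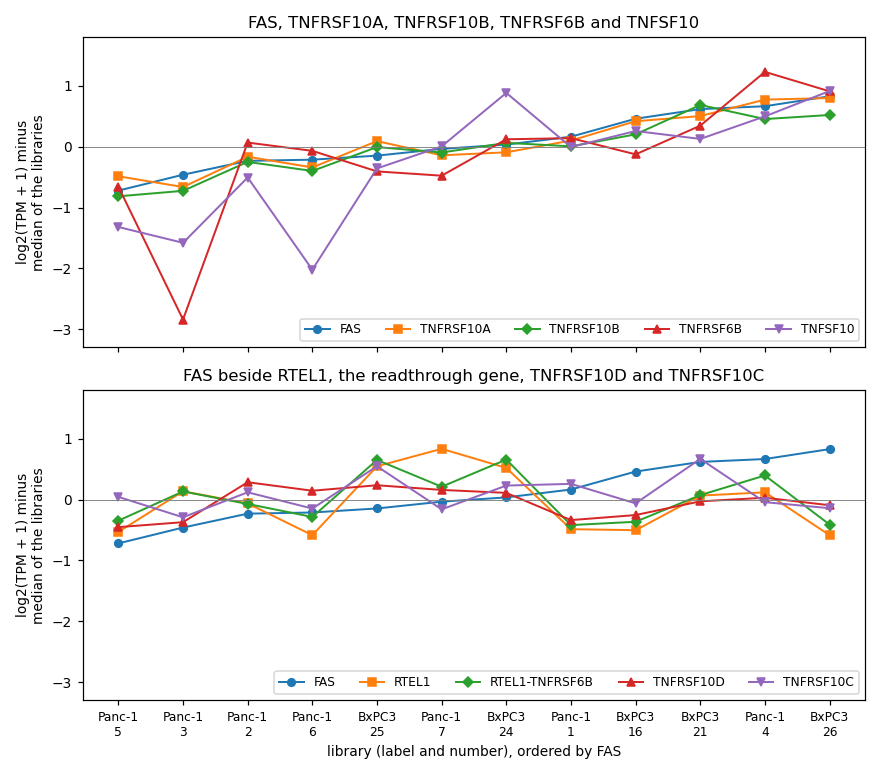
The 12 libraries with SMAD4 under 1 TPM ordered by FAS (x axis), with each gene as log2(TPM + 1) minus its median over these libraries (y axis). In the upper panel TNFRSF10A and TNFRSF10B climb with FAS (r = 0.95 for both) and TNFRSF6B and TNFSF10 climb less evenly. In the lower panel RTEL1 and TNFRSF10D do not follow FAS (r = -0.10 and 0.12). For the readthrough gene and TNFRSF10C no r with FAS was computed.

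Other genes resembled TNFRSF6B more closely than RTEL1 did. Among 14374 genes with a mean of at least 1 TPM in the 12 libraries, the 5 with the highest r with TNFRSF6B were OCIAD2 (0.90), NT5E (0.89), CD55 (0.89), PGF (0.89) and RNASE7 (0.89). NT5E encodes the ecto-5'-nucleotidase CD73, and CD55 a complement decay-accelerating protein. TNFRSF10A was at rank 119, TNFRSF10B at 246, FAS at 386, TNFSF10 at 704 and RTEL1 at 6953. In the 14 libraries, where TNFRSF6B was mostly 0, the 5 highest were VPS54 (0.90), SF3B6 (0.88), AREG (0.88), MCEE (0.88) and HPCAL1 (0.87) of 13826. Both lists hold the largest of many values over few libraries, and their r was not tested.

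The ligands were hardly detected. FASLG was at most 0.0324 TPM in the 12 libraries and 0.0662 TPM in the 14, which is 1.06 and 2.02 estimated counts, and TNFSF14 was at most 0.171 and 0.155 TPM, or 14.7 and 11.1 estimated counts. TNFSF15 was at most 0.0647 TPM in the 12, and in the 14 it reached 0.800 TPM, or 70.1 estimated counts, in BxPC3 19, where the next highest was 0.238 TPM. All 3 ligands that DcR3 binds were therefore below 1 TPM in all 26 libraries. Markers of leukocytes, cells known for FASLG and TNFSF14, summed to 0.334 to 2.29 TPM over 6 genes in the 12 and to 0.0707 to 0.771 TPM in the 14, and CD2 was at 0 in every library of the 12. Endothelial markers, of cells known for TNFSF15, summed to 3.16 to 16.97 and 0.321 to 5.39 TPM over 3 genes, and fibroblast markers to 0.191 to 1.45 and 0.509 to 3.63 TPM over 3 genes. In the epithelial list of 6 genes the sums were 4026 to 8126 and 2067 to 8437 TPM, and in the mesenchymal list of 4 genes 12.4 to 129 and 3109 to 4565 TPM.

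The pathway beyond these genes was examined in a list of 23. In the 12 libraries 6 of them were higher without overlap and 1 was lower, against the background of 8.65% and 8.60%, and 16 overlapped. All 23 had a median of at least 1 TPM in the higher set, and among such genes the background was 15.2% and 15.8%. The median difference of the list was 0.31. The ligand TNFSF10 (TRAIL) was at 14.8, 63.3 and 120 TPM in the 12 libraries and at 0.0901, 0.491 and 1.10 TPM in the 14, a difference of 5.18. It thus moved in the same direction as both of its death receptors and both of its membrane decoys. The soluble TRAIL decoy TNFRSF11B (osteoprotegerin) was at 0.356, 3.33 and 4.23 TPM and at 0, 0.0605 and 0.491 TPM, with overlap.

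Among the other receptors, LTBR, the lymphotoxin beta receptor and a membrane receptor of LIGHT, was at 172, 203 and 248 TPM in the 12 libraries and at 0.868, 2.49 and 5.21 TPM in the 14, a difference of 5.89. TNFRSF25 (DR3), the signalling receptor of TL1A, had medians of 22.9 and 4.33 TPM and a difference of 2.24. TNFRSF1A, a TNF receptor, had medians of 206 and 104 TPM and a difference of 1.01. None of these 3 overlapped. TNFRSF14 and TNFRSF21, further receptor genes of the list named after their values were seen, did overlap. Their medians were 9.84 and 6.32 TPM for TNFRSF14 and 166 and 51.0 TPM for TNFRSF21.

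At the death-inducing signalling complex, CASP10 stood apart from its partners. It was at 4.75, 6.06 and 11.5 TPM in the 12 libraries and at 0, 0.0664 and 0.397 TPM in the 14, a difference of 2.72. FADD had medians of 46.1 and 42.3 TPM and CASP8 of 42.7 and 31.5 TPM, both with overlap. CFLAR ranged from 24.8 to 90.2 TPM in the 12 and from 24.8 to 41.1 TPM in the 14. The remaining genes without overlap, named after their values were seen, were the effector caspase gene CASP6, with medians of 25.1 and 15.5 TPM, and the kinase gene RIPK1, the 1 gene that was lower, with medians of 15.5 and 27.4 TPM. Within the libraries labelled BxPC3 9 genes of the list were higher and 4 lower, against 14.3% and 12.6% of all genes. Within those labelled Panc-1 8 were higher and 4 lower, against 12.9% and 13.1%.

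**Figure D5:**
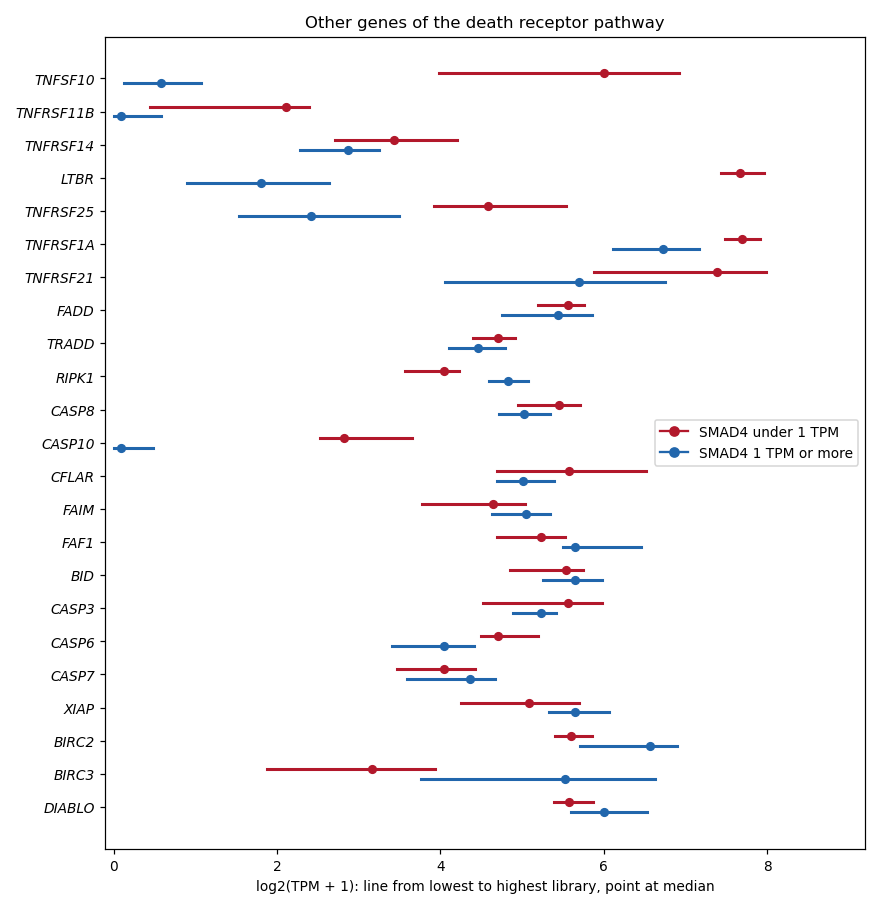
Lowest to highest library (line) and median (point) in log2(TPM + 1) for the 23 other genes of the death receptor pathway, with SMAD4 under 1 TPM in red (12 libraries) and the 14 others in blue. TNFSF10, LTBR, TNFRSF25, TNFRSF1A, CASP10 and CASP6 lie higher without overlap in red, RIPK1 lies lower, and 16 genes overlap.

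The labelled lines themselves were compared last, as the only groups the labels give. Both labels hold libraries with and without SMAD4, so the comparison is one of labels, and nothing about the lines BxPC3 and Panc-1 can be read from it. The p-values set the difference between labels against the spread between these libraries, and that spread includes the division by SMAD4. With edgeR's quasi-likelihood test, 0 of 16008 genes (0%) had an adjusted p under 0.05 and 367 had an unadjusted p under 0.05. Of the 10 genes 7 had enough counts to be tested, and 0 were called, also at an unadjusted p under 0.05. DESeq2 called 1 gene of 16008 (0.00625%), not of these lists, and limma 0. For TNFRSF6B the log2 difference, Panc-1 minus BxPC3, was 0.0024 with a standard error of 1.497 (edgeR, adjusted p = 1.00). For FAS it was -0.30 ± 0.71 (SE) and for TNFRSF10B -0.26 ± 0.41 (SE). Of the 23 pathway genes 0 were called and 1, the adaptor gene TRADD, had an unadjusted p under 0.05 (edgeR, p = 0.0282, adjusted p = 1.00). When only the libraries with low SMAD4 were compared, TNFRSF10B was lower in those labelled Panc-1 by a log2 difference of -0.51 ± 0.23 (SE), which did not pass the adjustment (edgeR, p = 0.0481, adjusted p = 0.433). In that comparison 1840 of 16124 genes, 4 of the 23 pathway genes among them, had an unadjusted p under 0.05, and 0 passed the adjustment.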

How the data were processed

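Polyadenylated RNA of each SCDCL was sequenced strand-specifically from both ends. The authors assigned reads to transcripts of Ensembl GRCh38 release 103 with kallisto 0.46.1 and summed them to genes with tximport. For each library the deposited table gives TPM, effective length and estimated counts. The authors derived these estimated counts with tximport's lengthScaledTPM option, from abundances multiplied by average length and brought to each library's total. A further 30 columns of estimated counts from kallisto's redraws of the reads were deposited for each library and were used here for the read error. Reads were not analysed here. Medians, ranges, differences and correlations were computed from TPM with a pseudocount of 1.

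The genes and lists were chosen with earlier results of these data known. Every listed gene is named. Of the pathway list, those named are the genes that do not overlap and differ by at least 1 in mean log2(TPM + 1), TNFSF10, TNFRSF11B, FADD, CASP8 and CFLAR, and further genes are said to be chosen after their values were seen. The 5 genes most like TNFRSF6B were named in each set.

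Labels were compared with edgeR's quasi-likelihood test on rounded estimated counts (TMM, filterByExpr, Benjamini-Hochberg adjustment, adjusted p under 0.05). Correlations had 100000 permutations, and 10000 where a single library was left out. Genes count as separated where every library of one set lies above every library of the other. Of 325 pairs of libraries, 0 were identical. Tests were tried on simulated data. Tools were limma 3.58.1, DESeq2 1.42.0 and edgeR 4.0.16 in R 4.3.3, and scipy 1.17.1, pandas 2.3.3 and numpy 2.4.6 in Python 3.11.15. Alternatives were other pseudocounts, normalizations, filters and tests, the median absolute deviation, single labels, and leaving out libraries. The labels give no response to gemcitabine, so none was compared.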

Additional observations from a re-analysis of the deposited data

Results flagged for a closer look

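In libraries of 1 label and 1 SMAD4 set, 23 sets of values were searched for a library far from the others, where chance alone marks about 1 in 20, and 2 were found. Both concern TNFRSF10B in libraries with SMAD4. BxPC3 18 was at 70.5 TPM, and the next of the 7 libraries was at 39.5 TPM. Panc-1 14 was at 65.5 TPM, and the next of its 7 libraries was at 40.9 TPM. BxPC3 18 also had the highest TNFRSF6B (1.26 TPM) and the highest readthrough gene (6.98 TPM) of the 14 libraries. TNFRSF6B was listed at 0 in Panc-1 14.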

How the results depend on the processing

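The number of receptor and ligand genes higher in libraries with low SMAD4 was 5 to 7 under all alternatives, and 0 were lower. It was 7 with median-of-ratios scaling, where RTEL1 was added, and 5 with a median of at least 1 TPM in the higher set. TNFRSF10C, with a median of 0.880 TPM in the 12, fell below that limit and was left out. The pathway list had 4 lower genes within the BxPC3 label and 4 within the Panc-1 label, against 1 over all libraries. The background in the lower direction was 12.6% and 13.1% within the labels and 8.60% over all libraries. The part of the smaller number of libraries was not tested. Among the 14 libraries with SMAD4, r of TNFRSF6B with RTEL1 was 0.85 when the readthrough gene was added to each (permutation p = 0.0001). Both sums then share that gene. With no gene added, r was -0.55 without the 2 libraries farthest from the median and -0.28 without BxPC3 18. Leaving out each library gave -0.28 to 0.26 there, and -0.25 to -0.08 among the 12. The spread of RTEL1 in the 12 was 0.76 by the median absolute deviation and that of TNFRSF10C was 0.52 with a pseudocount of 0.1. In the 14 the median absolute deviation was 0.16 for TNFRSF10B and 0.17 for TNFRSF10D. Of the differences of single genes between the sets, 53 moved by less than 1 SD and 13 by more. The sign changed in 2 that were near 0, FASLG within the BxPC3 label (-0.0040 against 0.0018) and TNFSF14 within the Panc-1 label (-0.0050 against 0.04). For TNFRSF6B the difference was 10.1 with a pseudocount of 0.1 and 5.03 with one of 5. No label comparison called any of these genes under any alternative. With SMAD4 as a covariate FAS had the lowest adjusted p of the 10 genes (edgeR, p = 0.0403, adjusted p = 0.652). No paired analysis was possible because the library numbers of the labelled lines do not repeat. Each clone has 1 library, so differences between clones and between preparations cannot be told apart, and values under 1 TPM rest on few counts.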
